A study of Bos taurus with 10 samples.

Results

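The enzymes of the tricarboxylic acid cycle were examined in the liver of Holstein dairy cows given conjugated linoleic acid (CLA), isomers of linoleic acid whose double bonds are conjugated. The genes were chosen by name as enzymes of the cycle, and every probe set of the array that carried 1 of the 9 names alone was taken, which gave 12 of the 24016 probe sets tested. Citrate synthase (CS), isocitrate dehydrogenases (IDH2 and IDH3A), 2-oxoglutarate dehydrogenase (OGDH), succinate-CoA ligase subunits (SUCLG1 and SUCLG2), fumarate hydratase (FH) and malate dehydrogenase (MDH2) were read, 8 of the 9 genes. DLST, the succinyltransferase core of the 2-oxoglutarate dehydrogenase complex, had no probe set under its name and was not analysed here. CS, IDH3A, FH and MDH2 were each read by 2 probe sets, and the brighter of the pair stands for the gene unless the second is named.

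Liver biopsies of lactation week 5 came from 40 female cows, of which 20 received a rumen-protected CLA fat and 20 a control fat in the same way. In both groups the fat formed 27.3% of 630 g of concentrate dry matter per cow and day, from 3 weeks before calving to 14 weeks after it, on top of one shared basal ration. Each pool joined the RNA of 4 cows, and 5 control pools and 5 CLA pools were each hybridized to 1 Affymetrix bovine array. A pool hides the differences between its 4 cows, so every error below comes from the spread between pools. The SE and intervals of the limma fits also draw on the spread of the other probe sets. Whole biopsies were read, and here fewer cells of a type and less RNA per cell cannot be told apart.

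The cycle runs in the mitochondrial matrix and oxidizes the acetyl groups delivered by fatty acids, pyruvate and amino acids, while its dehydrogenases pass electrons to the respiratory chain. In the liver it also supplies malate for gluconeogenesis and citrate for lipid synthesis. In ruminants, propionate from the rumen enters it as succinyl-CoA, which makes the steps around that intermediate a main gate for glucose carbon in a lactating cow.

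Of the 8 genes, SUCLG2 had the lowest p. It was higher with CLA by 0.27 ± 0.076 SE on the log2 scale, a ratio of 1.20, and all 5 CLA pools lay at or above the highest control pool. The other 7 genes differed by -0.12 to 0.15, with 95% intervals that all spanned 0. Of the 8 genes, 6 were higher and 2, CS and FH, were lower. None passed limma's test with Benjamini-Hochberg adjustment over all 24016 probe sets: the lowest adjusted p among them was 0.381, that of SUCLG2. The test called 0 probe sets on the array (0%) at an adjusted p under 0.05, against 2135 (8.89%) at an unadjusted p under 0.05.

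SUCLG2 was the 1 gene of 8 (12.5%) with an unadjusted p under 0.05. Over all 9155 named genes, each at its brightest probe set, limma gave 778 such genes, or 8.5%, and 398 of them were higher with CLA, or 4.35%. A share of 1 in 8 therefore lay near that of the array. The median difference of the 8 genes was 0.080, beside -0.010 over all named genes. Among the 4965 genes at least as bright as the dimmest of the 8, the median was 0.0080. Higher by any amount were 6 of the 8, against 46% of all named genes and 52.8% of those bright genes. The members were picked by name with earlier results known, so these shares are a description without a test.

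**Figure D1:**
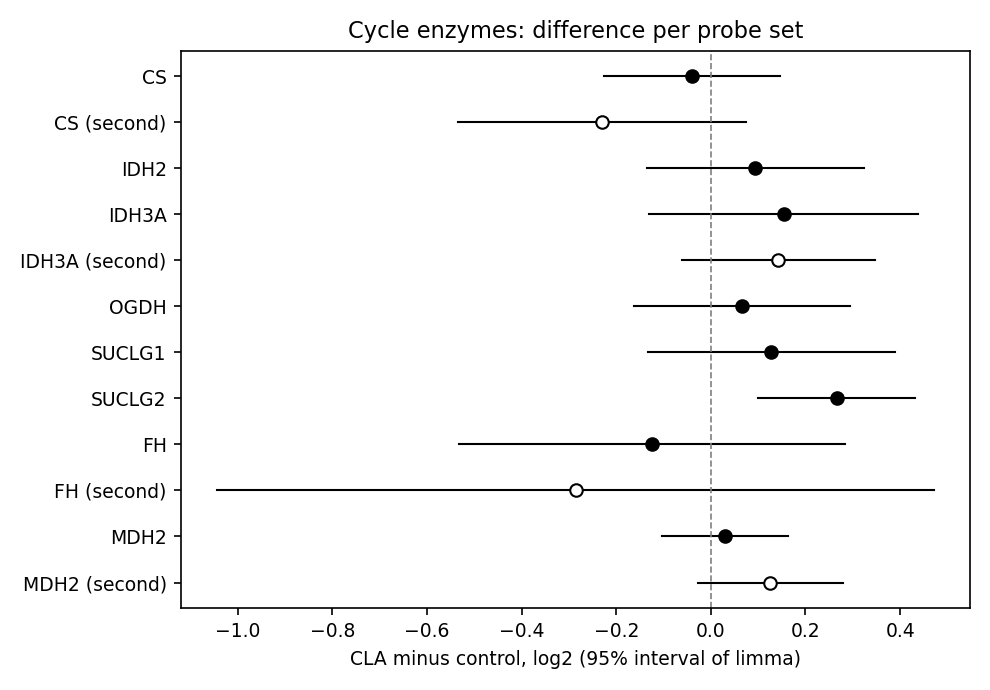
Difference between CLA and control pools (log2, horizontal axis) for each of the 12 probe sets of the cycle enzymes, with the 95% interval of limma, not adjusted for the number of probe sets. Filled points mark the brighter probe set of a gene and open points the second; the interval of SUCLG2, 0.10 to 0.43, is the one that does not reach 0.

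Citrate synthase opens the cycle by joining acetyl-CoA to oxaloacetate. Its log2 values in control pools 1 to 5 were 8.64, 9.06, 8.73, 8.89 and 8.81, and in CLA pools 1 to 5 they were 8.71, 8.89, 8.76, 8.86 and 8.71. Every CLA pool lay inside the control range, and the means were 8.83 ± 0.16 and 8.79 ± 0.084 (SD, n = 5 each). The difference of -0.04 ± 0.085 SE had a 95% interval of -0.23 to 0.15. At the second probe set the difference was -0.23 ± 0.14 SE, and 3 of 5 CLA pools, pools 1, 2 and 4, lay below the lowest control pool at 4.53. That set is far dimmer, with a control mean of 4.81. At the brighter set the direction of CS rested on control pool 2, the highest of all 10, and the difference was 0.02 without it. At the second set control pool 5 was the highest, at 5.05, and control pool 2 read 4.98.

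The isocitrate dehydrogenases release the first carbon dioxide of the cycle. IDH2 is the mitochondrial form that yields NADPH, and IDH3A is the catalytic subunit of the NAD-dependent form. IDH2 read 9.96, 9.83, 10.07, 9.91 and 9.46 in control pools 1 to 5 and 10.07, 9.88, 9.98, 9.93 and 9.84 in the CLA pools. All CLA pools lay within the control range, and control pool 5 was the lowest array by a wide gap. The difference of 0.09 ± 0.11 SE became -0.0025 without control pool 5.

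IDH3A read 7.10, 7.06, 6.94, 6.96 and 6.43 in control pools 1 to 5 and 7.12, 7.31, 6.87, 7.09 and 6.87 in the CLA pools. Control pool 5 was again the lowest, far below the other control pools, and CLA pool 2 was the highest. The difference was 0.15 ± 0.13 SE, 0.04 without control pool 5 and 0.09 without CLA pool 2. The second probe set of IDH3A differed by a similar 0.14 ± 0.094 SE, but there control pool 5, at 5.18, lay in the middle of its group, whose range was 4.95 to 5.32. The low value of control pool 5 was thus carried by 1 of the 2 probe sets. IDH3G, a regulatory subunit of the same enzyme, differed by 0.00 ± 0.082 SE.

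OGDH is the first component of the complex that turns 2-oxoglutarate into succinyl-CoA. Control pools 1 to 5 stood at 7.76, 7.60, 7.92, 7.81 and 7.79, and CLA pools 1 to 5 at 7.81, 8.22, 7.77, 7.75 and 7.66. A single array, CLA pool 2, rose above the control range, and the remaining 4 lay inside it. The difference of 0.07 ± 0.10 SE turned to -0.03 without CLA pool 2.

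DLD, the dihydrolipoamide dehydrogenase that serves this complex and the pyruvate dehydrogenase complex alike, showed another pattern. It read 9.80, 9.81, 9.91, 9.63 and 9.77 in control pools 1 to 5 and 10.06, 10.16, 10.12, 10.01 and 9.99 in the CLA pools. Every CLA pool was above every control pool, and the difference was 0.28 ± 0.070 SE (limma, unadjusted p = 0.00162, Benjamini-Hochberg adjusted p = 0.332). Groups failed to overlap in 199 of the 9155 named genes, or 2.17%, and in 0 of the 8 cycle enzymes. DLD is not among those 8. Of the 47 measured genes in the neighbouring lists described below, 1 did not overlap, DLD, a share near that of the array. Without any 1 pool the DLD difference stayed between 0.25 and 0.32. The pools of DLD also stayed apart after quantile normalization (0.24) and after cyclic loess normalization (0.25).

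Succinate-CoA ligase converts succinyl-CoA to succinate and makes a nucleoside triphosphate directly. SUCLG1 is the alpha subunit that all forms of the enzyme share, SUCLG2 the beta subunit of the GTP-forming enzyme and SUCLA2 that of the ATP-forming enzyme. SUCLG2 stood at 11.67, 11.68, 11.94, 11.62 and 11.81 in control pools 1 to 5. The CLA pools read 12.04, 12.03, 12.10, 11.94 and 11.94. Control pool 3 tied with CLA pools 4 and 5, and 3 of the 5 CLA pools lay above every control pool. Group means were 11.74 ± 0.13 and 12.01 ± 0.069 (SD, n = 5 each), and limma gave an unadjusted p = 0.00436. The difference stayed between 0.24 and 0.32 with any 1 pool left out, and its unadjusted p stayed under 0.05 in 10 of 10 such fits (0.00112 to 0.0131). The adjusted p lay between 0.268 and 0.680 in them. A single probe set read this gene, so no second set was there to compare.

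SUCLG1 read 9.53, 9.77, 9.64, 9.72 and 9.63 in control pools 1 to 5 and 9.86, 10.23, 9.69, 9.66 and 9.49 in the CLA pools. CLA pools 1 and 2 lay above the control range, pools 3 and 4 inside it and pool 5 below it. Its difference of 0.13 ± 0.12 SE rested on CLA pool 2 and was 0.02 without it. For SUCLA2 the control pools ranged from 7.48 to 7.74 and the CLA pools from 7.64 to 8.14, with CLA pool 2 highest. The difference was 0.21 ± 0.098 SE (limma, unadjusted p = 0.0555, adjusted p = 0.568), and 0.13 without CLA pool 2. The second, dim probe set of SUCLA2 differed by 0.10 ± 0.074 SE.

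**Figure D2:**
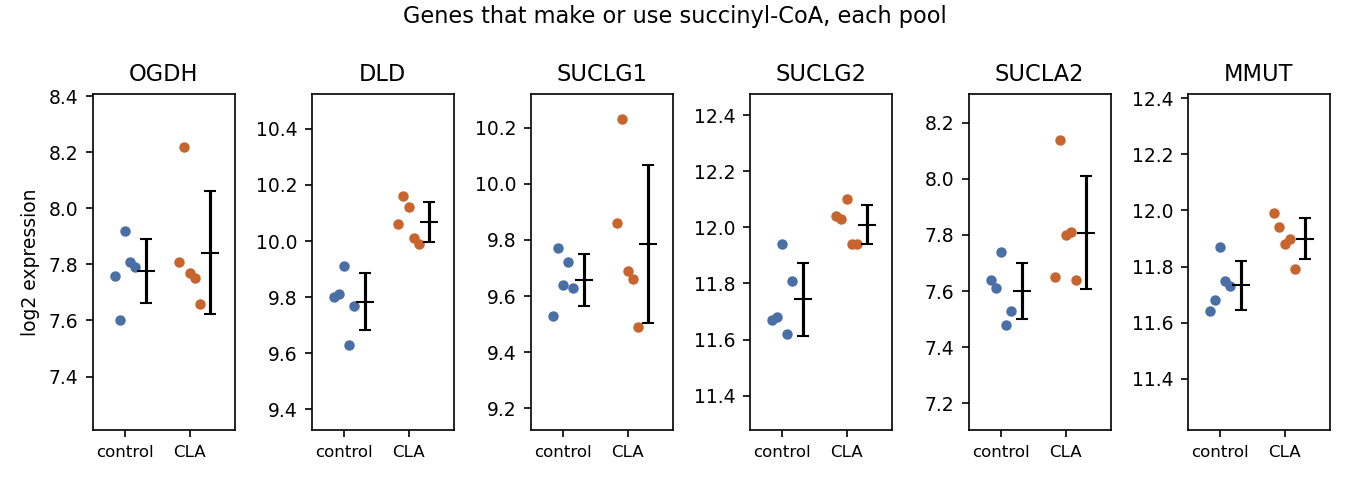
Log2 expression (vertical axis, 1.2 units tall in each panel) in the 5 control pools and the 5 CLA pools for 6 genes. Their products belong to enzymes or complexes that make or use succinyl-CoA, and DLD also serves the pyruvate dehydrogenase complex. Bars are the mean and SD of 5 pools, and levels are not comparable between panels. DLD pools do not overlap, SUCLG2 pools meet at 11.94, a single CLA pool, pool 2, lies above the control pools in OGDH, and CLA pools 1 and 2 do so in SUCLG1.

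The CLA effect on partner subunits was compared within arrays, by the log2 difference between the 2 genes in each pool, for 4 pairs. The pairs were chosen after values were seen, so their p-values describe these pairs and are no independent test. The value of SUCLG2 minus that of SUCLG1 was 1.90 to 2.30 in the control pools and 1.80 to 2.45 in the CLA pools, a quantity that is comparable between pools but is no ratio of transcript amounts. The shift between groups, 0.14 ± 0.14 SE, was no larger than the spread (exact two-sided permutation p = 0.341, Benjamini-Hochberg adjusted p = 0.497 over the 4 pairs). For SUCLG2 against SUCLA2 the shift was 0.06 ± 0.099 SE (exact permutation p = 0.571, adjusted p = 0.571), and for IDH3A against IDH3G it was 0.15 ± 0.14 SE (exact permutation p = 0.373, adjusted p = 0.497). OGDH against DLD shifted by -0.22 ± 0.097 SE, the pair farthest from 0, with an exact permutation p = 0.0794 and an adjusted p = 0.317. So for these 4 pairs a CLA difference was not shown to be unequal, and at these errors it was not shown to be equal either. Other partners, such as SDHD and SDHA with differences of 0.21 and -0.12, were not compared in this way.

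Fumarate hydratase adds water to fumarate to give malate. FH had the widest range of the 8 genes over the 10 pools, from 10.89 to 11.98. Control pools 1 to 5 read 11.53, 11.64, 11.42, 11.98 and 11.61, and CLA pools 1 to 5 read 11.82, 11.18, 11.84, 10.89 and 11.83. CLA pools 2 and 4 lay below every control pool, while CLA pools 1, 3 and 5 lay close together, above all control pools but pool 4. The second probe set had the same 2 arrays lowest, CLA pool 2 at 4.92 and CLA pool 4 at 5.77, against 6.20 to 6.96 in the control pools and 6.58 to 7.05 in the other CLA pools. The order of that pair was exchanged between the probe sets. The SD within the CLA group was 0.45 at the brighter set and 0.87 at the second, against 0.21 and 0.37 within the control group. Mean differences were -0.12 ± 0.19 SE and -0.29 ± 0.35 SE, and the first stood at 0.03 without CLA pool 4 and at -0.04 without either CLA pool 2 or control pool 4. The low value of CLA pool 4 was not shared by the other cycle enzymes: relative to the control mean it stood at -0.75 for FH, and between -0.03 for OGDH and 0.20 for SUCLG2 in the other 7 genes.

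**Figure D3:**
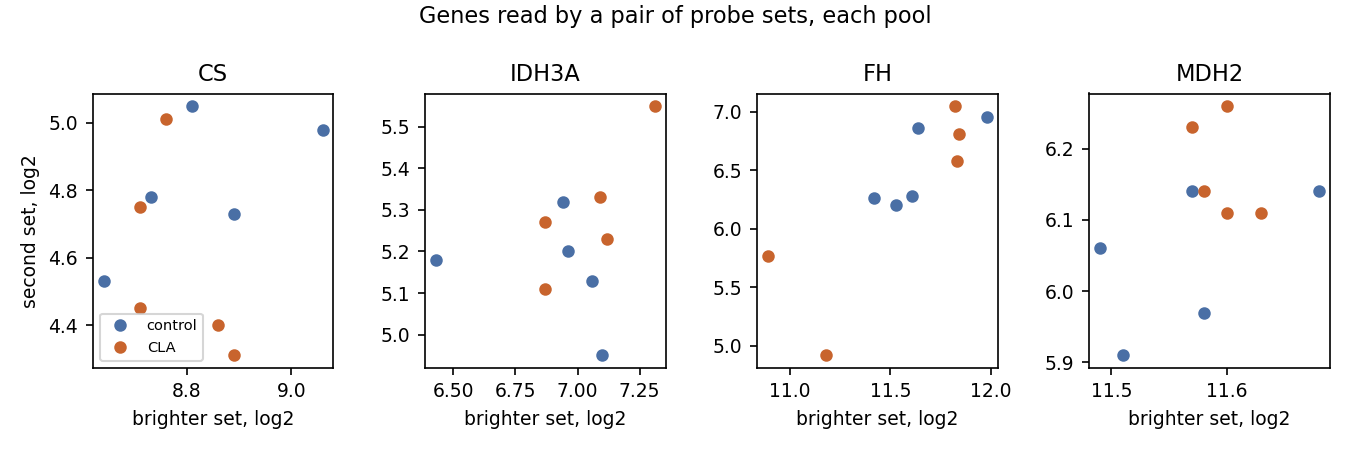
Log2 values of the second probe set (vertical axis) against the brighter probe set (horizontal axis) of the 4 genes read by 2 probe sets, 1 point per pool. In FH the CLA pools 2 and 4 are lowest on both axes, whereas the low control pool 5 of IDH3A (6.43) is low on the horizontal axis only.

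Mitochondrial malate dehydrogenase closes the cycle by oxidizing malate to oxaloacetate. MDH2 was the steadiest gene: control pools 1 to 5 read 11.57, 11.68, 11.49, 11.51 and 11.58, and CLA pools 1 to 5 read 11.60, 11.58, 11.63, 11.60 and 11.57. All CLA pools lay inside the control range, with an SD of 0.023 against 0.074. The difference of 0.03 ± 0.061 SE had a 95% interval of -0.10 to 0.16, the narrowest of the 12 probe sets. It was -0.0028 after quantile normalization and -0.0094 after cyclic loess normalization, so no direction can be given. The second probe set differed by 0.13 ± 0.071 SE, with CLA pools 1 and 5, at 6.26 and 6.23, above the control maximum of 6.14.

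Read across the genes, pools of 1 group covered a wide range. The mean of the 8 genes relative to the control mean was 0.14, 0.17, 0.086, -0.029 and -0.0050 in CLA pools 1 to 5, and -0.024, 0.046, 0.025, 0.056 and -0.10 in control pools 1 to 5. CLA pools 1, 2 and 3 were the highest 3 arrays, CLA pools 4 and 5 lay within the control range, and control pool 5 was lowest. In CLA pools 1 and 2, 7 of the 8 genes were above their control mean, and in CLA pool 5 it was 3. SUCLG2 and MDH2 were the genes with 5 of 5 CLA pools above the control mean. Among the 9147 other named genes, those whose values over the 10 pools most resembled this mean were PPP2R3C, a phosphatase subunit (Pearson's r 0.911), the myristoyltransferase NMT1 (0.910), the hydrolase GGH (0.897), the peptidase DPP3 (0.894) and the helicase-like DHX32 (0.894). These are the highest of many correlations over 10 pools and carry no test.

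**Figure D4:**
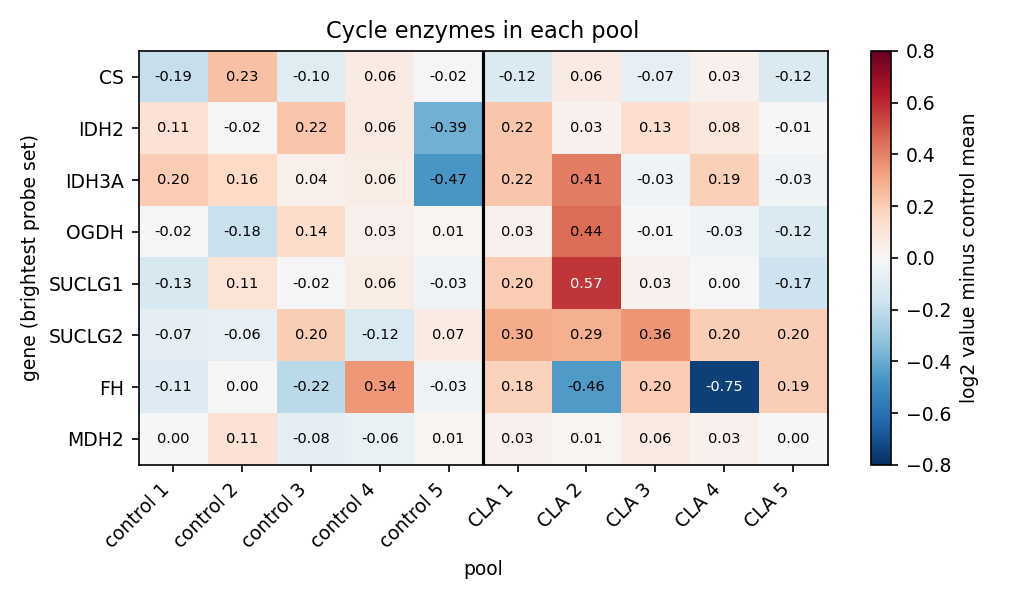
Log2 value relative to the control mean (colour and number) for the 8 cycle enzymes (rows) in each of the 10 pools (columns). SUCLG2 is above its control mean in all 5 CLA pools, IDH2 and IDH3A are low in control pool 5 (-0.39 and -0.47), and FH is low in CLA pools 2 and 4 (-0.46 and -0.75).

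Array-wide measures are given beside these values. The interquartile range over all probe sets was 3.59 to 3.72 in the control arrays and 3.65 to 3.80 in the CLA arrays (exact two-sided permutation p = 0.230, n = 5 each). The SD, the other measure of spread, was 2.34 to 2.39 in the control arrays and 2.38 to 2.43 in the CLA arrays (exact two-sided permutation p = 0.0238, n = 5 each). Array medians were 5.83 to 5.85 and 5.79 to 5.82 (exact permutation p = 0.00794, the smallest the design allows). CLA pool 2 had the widest interquartile range, 3.80, and control pool 5 the narrowest, 3.59, the arrays with the highest and the lowest mean of the cycle enzymes. Between these ends the orders differed: control pool 1 had the third widest range, 3.72, and a mean of -0.024. The relation was not tested. Any 2 arrays correlated at 0.988 to 0.996 across probe sets. Quantile normalization gives every array the same distribution, and after it the mean of the 8 genes ran from -0.050 to 0.10 in the CLA pools and from -0.073 to 0.049 in the control pools. The median difference was then 0.050, and SUCLG2 still differed by 0.23 (limma, unadjusted p = 0.0113, adjusted p = 0.494). With the values as deposited, the median of 0.080 became 0.026 when CLA pool 2 was left out and 0.035 when control pool 5 was.

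**Figure D5:**
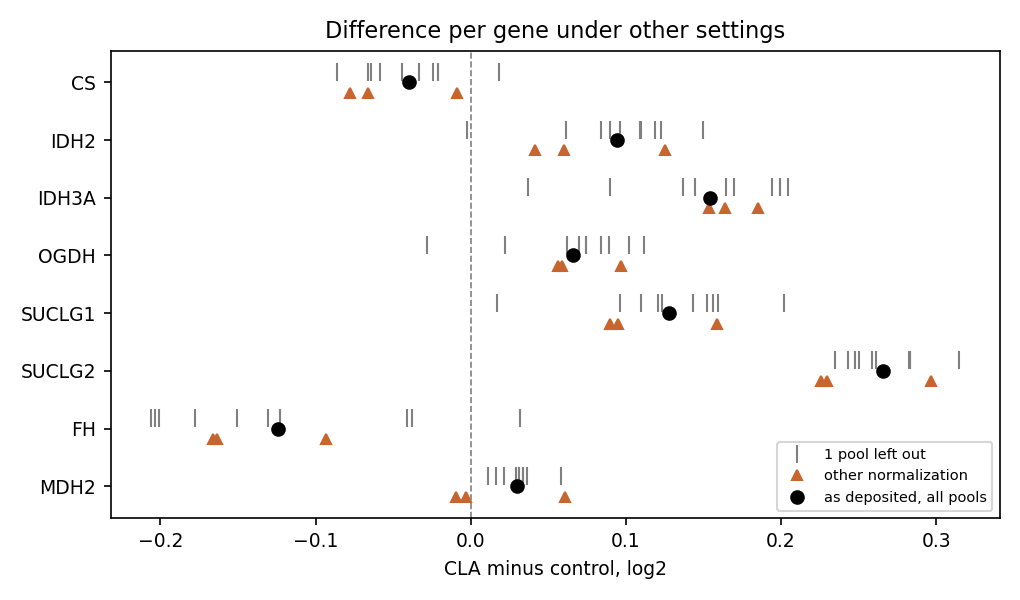
Difference between CLA and control pools (log2, horizontal axis) of each cycle enzyme as deposited with all pools (black), with 1 pool left out (grey ticks) and after 3 other normalizations (triangles). SUCLG2 stays between 0.23 and 0.32, while CS, IDH2, OGDH, FH and MDH2 each reach the other side of 0 in at least 1 setting.

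The tissue markers were those of liver, with 11 of 11 hepatocyte markers measured at a mean log2 value of 13.37. Their mean level relative to the control mean lay between -0.38 and 0.13 in the control pools and between -0.13 and 0.19 in the CLA pools. HP varied most among these markers, from 8.90 to 13.98 in control and from 10.65 to 14.26 in CLA pools. ASGR1, by contrast, ranged from 11.93 to 12.14 and from 11.96 to 12.13. The hepatocyte mean thus moved with HP and is no measure of hepatocyte content alone. For T and NK lymphocytes 12 of 12 markers were lower with CLA (median -0.16), 1 of them with an unadjusted p under 0.05, and their level was -0.22 to 0.20 in control and -0.33 to -0.066 in CLA pools. Beside this, 53.2% of all named genes were lower and 8.5% had such a p. Of the markers of Kupffer cells and macrophages 8 of 8 were lower, 0 with such a p (median -0.065; -0.22 to 0.17 and -0.14 to 0.058), and of the erythroid markers 6 of 6, 1 with such a p (median -0.070; -0.12 to 0.16 and -0.20 to 0.049). Other lists were mixed, with 5 of 9 endothelial, 3 of 9 stellate cell, 3 of 5 B lymphocyte, 2 of 4 cholangiocyte and 5 of 7 skeletal muscle markers lower, and 3 of 3 adipocyte markers were lower. The ranges given overlapped between the groups. The part of the array spread in the SUCLG2 difference was not tested beyond the normalizations given, and the part of cell makeup was not tested.

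Other genes that feed, complete or control the cycle were described from 6 lists with 63 symbols, of which 47 were measured. In limma 27 of the 47 were higher and 18 lower, 5 had an unadjusted p under 0.05 in the higher direction and 1 in the lower, and 0 passed the adjusted test. That is 12.8% of the 47, beside 8.5% of all named genes; after quantile normalization the count was 3.

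Among the remaining cycle enzymes 5 of 8 were higher, 2 lower and IDH3G even; the median was 0.065. DLD has been given. SDHD, a membrane anchor of succinate dehydrogenase, ranged from 10.72 to 11.05 in control pools and from 11.03 to 11.14 in CLA pools, so the groups overlapped at their edges. Its difference was 0.21 ± 0.072 SE (limma, unadjusted p = 0.0131, adjusted p = 0.442), 0.15 after quantile normalization (unadjusted p = 0.0686) and 0.17 after cyclic loess normalization (unadjusted p = 0.0390). As deposited, its p stayed under 0.05 in 10 of 10 fits with 1 pool left out. SDHA, the flavoprotein subunit of the same enzyme, differed by -0.12 ± 0.080 SE. Its other subunits SDHB and SDHC differed by 0.05 ± 0.098 SE and 0.08 ± 0.069 SE. Of the 4 cytosolic counterparts 2 were higher. IDH1, the cytosolic NADPH-forming isocitrate dehydrogenase, differed by 0.18 ± 0.072 SE at the brightest of its 3 sets (limma, unadjusted p = 0.0262, adjusted p = 0.506) and by 0.31 and 0.04 at the other sets. At that brightest set of IDH1 the p stayed under 0.05 in 5 of 10 fits with 1 pool left out (0.0154 to 0.0605), and was 0.0611 after quantile normalization, with a difference of 0.14.

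Pyruvate enters through its carrier and the pyruvate dehydrogenase complex, whose genes gave no unadjusted p under 0.05. Of the 11 measured, 7 were higher, with a median of 0.038. PDHX, which holds DLD to that complex, differed by 0.18 ± 0.099 SE, and PDHA1, the E1 alpha subunit, by 0.00 ± 0.085 SE. For PDK4, a kinase that shuts the complex off, the brightest set differed by -0.16 ± 0.17 SE and the others by 0.25 and 0.21.

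In the list of carbon supply and withdrawal 8 of 14 genes were higher, and the median was 0.037. MMUT, the methylmalonyl-CoA mutase that delivers propionate carbon as succinyl-CoA, ranged from 11.64 to 11.87 in control and from 11.79 to 11.99 in CLA pools. Its difference was 0.17 ± 0.068 SE (limma, unadjusted p = 0.0316, adjusted p = 0.525), and 0.12 with an unadjusted p = 0.0936 after quantile normalization. With 1 pool left out, the p of MMUT stayed under 0.05 in 5 of 10 fits (0.0150 to 0.0781). PCCA and PCCB, the propionyl-CoA carboxylase subunits before it, differed by 0.06 ± 0.072 SE and 0.05 ± 0.084 SE. PC, the pyruvate carboxylase that refills oxaloacetate, differed by -0.05 ± 0.15 SE, and PCK1, which withdraws oxaloacetate for glucose, by -0.01 ± 0.060 SE. The dimmer probe sets of PC differed by -0.06 and by -0.17 (limma, unadjusted p = 0.0430 and adjusted p = 0.553 for the latter).

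Of 4 mitochondrial carriers 2 were higher and 2 lower. SLC25A21, which carries oxodicarboxylates, differed by 0.24 ± 0.086 SE (limma, unadjusted p = 0.0151, adjusted p = 0.456). SLC25A12, an aspartate and glutamate carrier, differed by -0.24 ± 0.099 SE (unadjusted p = 0.0314, adjusted p = 0.525), with its other probe sets at -0.06 and -0.12. With 1 pool left out, the p stayed under 0.05 in 10 of 10 fits for SLC25A21 and in 4 of 10 for SLC25A12, which differed by -0.21 after quantile normalization (limma, unadjusted p = 0.0623). The 6 measured regulators of mitochondrial genes were split, 3 higher and 3 lower, and 0 had an unadjusted p under 0.05. PPARA, a fatty acid receptor, differed by -0.27 ± 0.17 SE, and PPARGC1A, a coactivator of mitochondrial gene expression, by 0.02 ± 0.093 SE. The second, dimmer probe set of PPARA differed by -0.01 ± 0.11 SE, and the other sets of PPARGC1A by 0.10, -0.02 and 0.02.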

How the data were processed

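The authors deposited log2 values, 1 for each probe set on each array. They were made with Affymetrix Expression Console 1.1 and RMA, per the submitters' processing notes; order and settings are not given in the sources used here. They carry 2 decimals and were used as deposited, so small differences are coarse, and RMA compresses low signals. The 112 manufacturer control probe sets were left out. Genes were named through the platform annotation (13292 probe sets with 1 symbol, 86 with several, 10638 with none), and all 8 gene identifiers of the cycle enzymes were in the RefSeq table of ARS-UCD2.0. No coordinates are given, since no build is named for the array.

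Differences are CLA minus control, fitted with limma 3.58.1 (lmFit, eBayes) in R 4.3.3 on 10 arrays without covariates. The p-values were adjusted over 24016 probe sets, and the fit was checked on simulated data. SE is the moderated one, but for the subunit pairs it is the unmoderated one of the differences in each pool. Named genes were all members, the gene of smallest p in each neighbouring list and those with an unadjusted p under 0.05. SUCLA2, IDH3G, SDHA, SDHB, SDHC, PDHA1, PDK4, PCCA, PCCB, PC, PCK1 and PPARGC1A were added for their roles after values were seen. So were the 4 subunit pairs. Subunit pairs and array measures were compared by exact permutation over 252 groupings. The members and lists were chosen with earlier results of these data known. Titles gave group and pool number. No label says whether pools with the same number belong together. Alternatives were each pool left out, the pool number as a block, other normalizations, a filter on dim probe sets, other spread estimates, array weights and other probe set choices.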

Additional observations from a re-analysis of the deposited data

Results flagged for a closer look

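A single array lay far from its group in 2 of the 26 sets of 5 pools examined, where chance would give about 1 in 20. The sets share the same 10 arrays, and no excess over that share was tested. OGDH in CLA pool 2 read 8.22, against 7.66 to 7.81 in the other CLA pools. IDH3A in control pool 5 read 6.43 at its brighter probe set, against 6.94 to 7.10 in the other control pools.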

How the results depend on the processing

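SUCLG2 stayed higher with CLA, with an adjusted p above 0.05, under all 20 alternatives. In each, 0 probe sets passed the adjusted test (2202 with an unadjusted p under 0.05 in the unmoderated test), and 1 cycle enzyme had an unadjusted p under 0.05 in each. As deposited, 0 probe sets had an adjusted p under 0.1. With 1 pool left out, CS ran from -0.0865 to 0.0185 (without control pool 2), IDH2 from -0.0025 (without control pool 5) to 0.150, OGDH from -0.0285 (without CLA pool 2) to 0.112 and FH from -0.206 to 0.0315 (without CLA pool 4), so each turned direction in 1 fit. OGDH also turned with array weights (-0.0056). MDH2 turned after quantile (-0.0028) and cyclic loess (-0.0094) normalization. IDH3A, SUCLG1 and SUCLG2 kept theirs. The median of the 8 genes was 0.026 to 0.12 with 1 pool left out, 0.050 after quantile normalization and 0.052 with array weights. Neighbouring genes with an unadjusted p under 0.05 numbered 3 after quantile normalization and 4 to 7 with 1 pool left out. Non-overlapping probe sets, 473 with all pools, numbered 611 to 925 with 1 pool left out, since fewer arrays overlap less. The array spread differed by 0.048 as an interquartile range (exact permutation p = 0.230) and by 0.0292 as an SD (exact permutation p = 0.0238). The deviations of same-numbered pools correlated at -0.086 to 0.092. Such values cannot show whether those pools were matched, and no label says so. With the pool number as a block limma called 0 probe sets, counted 2168 at an unadjusted p under 0.05, and gave SUCLG2 an unadjusted p = 0.00644. The number of arrays limits the precision: among the 8 genes the 95% interval was widest for FH, -0.53 to 0.28.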
